A study of Mus musculus with 6 samples.

Results

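Primary mouse hepatocytes exposed to tumour necrosis factor alpha (TNFα) for 2 days were compared with hepatocytes exposed for 2 hours. The comparison took its members from the array titles: the 2 arrays of cells given TNFα for 2 days and the 2 arrays of cells given it for 2 hours, 4 of the 6 arrays of the series. The remaining 2 arrays, of untreated cells, served as the reference that tells early from late changes. All cells were primary hepatocytes of male C57Bl/6J mice, cultured on collagen in a serum-containing medium with dexamethasone, a synthetic glucocorticoid, and insulin, so these hormones were present in every group. Both exposures used recombinant murine TNFα at 2 ng/mL. Whether the replicates were separate cultures or mice is not in the labels. The error behind every p-value is thus array-to-array spread of 2 arrays per group, pooled in large part over all genes and possibly technical only. The labels also give no time in culture for the untreated cells, and no untreated cells of the later time were analysed here. Length of exposure and time in culture therefore cannot be told apart.

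TNFα is a cytokine of macrophages and other immune cells that acts through receptors on the cell surface. In hepatocytes its binding frees the transcription factor NF-κB from inhibitor proteins of the IκB family, and NF-κB then moves to the nucleus and turns on genes of chemokines, adhesion molecules and survival proteins. Among the targets are the inhibitors themselves, such as IκBα and A20, which end the signal and allow further rounds of it. Hepatocytes also carry out the urea cycle, make glucose and bile acids, detoxify drugs through cytochrome P450 enzymes and secrete most plasma proteins.

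Intensities are the deposited values of single-colour Illumina bead arrays on a linear scale, with background kept, so changes of dim genes are understated. Differences are log2 differences from a limma fit to all 6 arrays, with their standard error (SE) and a Benjamini-Hochberg adjusted p over 13438 genes. The fit draws each gene's spread toward that of all genes, with 21.22 prior against 3 residual degrees of freedom. An SE or p-value is therefore not the replicate precision of that gene alone. A gene was called at an adjusted p under 0.05. Over these genes arrays of 1 group correlated at 0.9952 to 0.9957, and 2 hour arrays with 2 day arrays at 0.9823 to 0.9836. All columns shared nearly 1 distribution (array medians 143.16 to 143.22), and the median difference between the times over all genes was 0.01.

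Between 2 hours and 2 days, 2056 of 13438 genes (15.3%) were called. Of these, 1160 (8.63%) were higher at 2 days and 896 (6.67%) were lower. The counts for gene lists below are to be read beside these 2 shares. The falls reached further: 128 genes fell at least 2-fold and 54 rose at least 2-fold. In 7090 genes (52.8%) the 2 arrays of 1 time did not overlap with those of the other, so absence of overlap alone says little about a gene. Against untreated cells, 379 genes (2.82%) were called at 2 hours, of which 237 (1.76%) were higher and 142 (1.06%) lower. At 2 days 1701 genes (12.7%) were called against untreated cells, 906 (6.74%) higher and 795 (5.92%) lower. Where a normexp background correction was applied first, the calls between the times were 413 higher and 397 lower.

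Each gene called at 2 hours was classed by what followed. A change faded where the gene was called between the times in the opposite direction, persisted where it was not called between the times but was called the same way at 2 days, and grew where it was called between the times in the same direction. Of the 237 early rises, 152 faded, 37 persisted, 22 grew and 26 met no definition. Of the 142 early falls, 69 faded, 44 persisted, 8 grew and 21 met no definition. Fading was not always complete: of the 152 faded rises, 101 were no longer called against untreated cells at 2 days, 32 were still called higher and 19 were called lower. The median faded rise went from 0.63 at 2 hours to 0.04 at 2 days against untreated cells, the median persisting rise from 0.56 to 0.63, and the median growing rise from 0.51 to 1.13. The faded falls split into 55 no longer called, 5 still called lower and 9 called higher. Late changes, called at 2 days against both other groups in the same direction with an unadjusted p of at least 0.05 at 2 hours, comprised 543 rises and 432 falls. Their differences at 2 hours ranged from -0.21 to 0.26 in the late rises and from -0.24 to 0.24 in the late falls. A further 830 genes were called between the times but entered no class. Of these, 688 were called against untreated cells at neither time. The other 142 were called at 2 days in the same direction but had an unadjusted p under 0.05 at 2 hours. The classes rest on 3 contrasts that share arrays, and the early genes were called on the same 2 hour arrays that enter the difference between the times, so the class counts describe these arrays. With background correction the faded, persisting and growing rises numbered 52, 18 and 3, the corresponding falls 6, 2 and 1, and the late rises and falls 186 and 190. Without 2 hour replicate 1 the faded rises were 100 and the faded falls 20, and without 2 hour replicate 2 they were 89 and 25. The persisting falls were 23 and 18 in these fits, against 25 without untreated replicate 1. The growing rises were 9 and 7, against 14 without untreated replicate 1, and the growing falls 4 and 2. The faded falls were 43 without untreated replicate 2, and the late rises 347 without 2 day replicate 2.

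**Figure D1:**
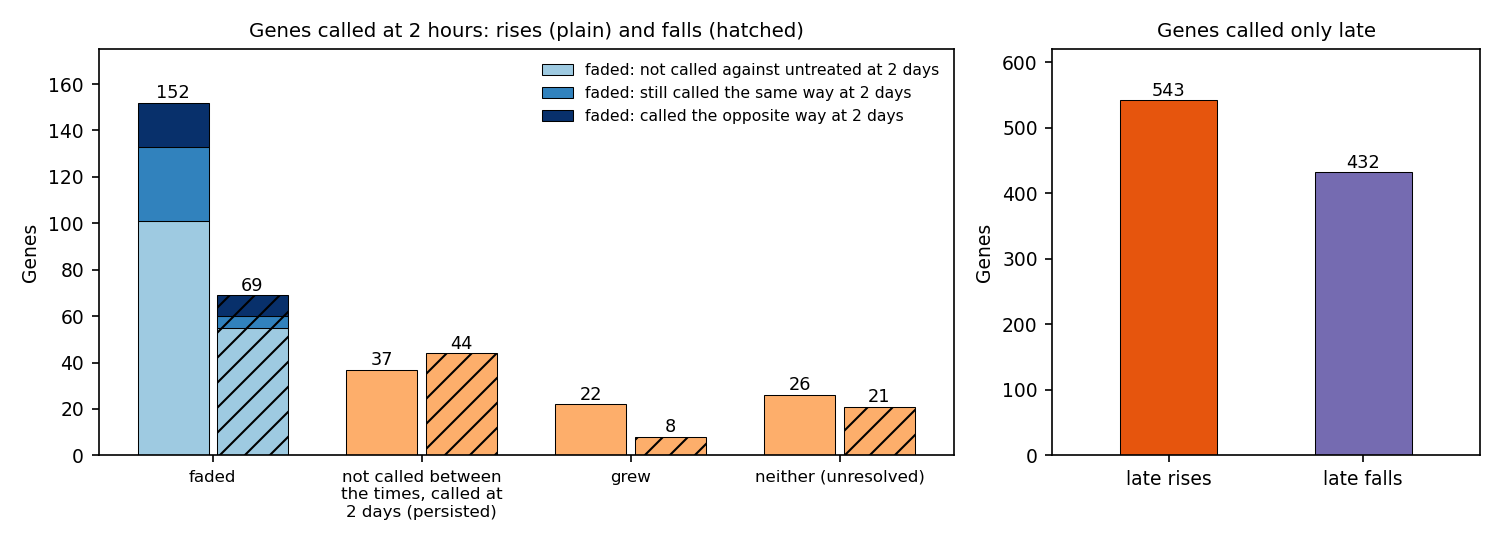
Number of genes in each time class; the left panel shows genes called at 2 hours against untreated cells, with rises plain and falls hatched, and the right panel shows genes called late. Shades split the 152 faded rises and 69 faded falls by their call against untreated cells at 2 days, and the late panel holds 543 rises and 432 falls.

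The large early rises mostly faded. Of 52 genes that had risen at least 2-fold by 2 hours, 44 faded, 7 persisted and 1 grew. Among the 44, 24 were still called higher than in untreated cells at 2 days, 18 were not called, and 2 were called lower. Of the 10 largest early rises, 9 faded and 1, that of the chemokine gene Ccl2, persisted. At 2 days 8 of these 9 were still called above untreated cells.

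Chemokines, secreted proteins that attract white blood cells, showed each of these courses. Of 25 listed chemokine genes 17 were tested, of which 1 was called higher at 2 days than at 2 hours and 6 were called lower, with a median difference of -0.15. Cxcl1, which attracts neutrophils, had intensities of 574 and 514 in untreated cells, 8544 and 8613 at 2 hours and 2054 and 2255 at 2 days. Both 2 day arrays lay far below both 2 hour arrays and above both untreated arrays. The level at 2 days was 3.99-fold lower than at 2 hours (log2 difference -1.99, SE 0.10, adjusted p = 2.72e-13 by limma). Cxcl2, another neutrophil chemokine, had intensities of 115 and 115 untreated, 653 and 886 at 2 hours and 129 and 124 at 2 days. Its 2 day arrays lay close to the untreated ones, and its log2 difference between the times was -2.59 (SE 0.12), or -4.26 with background correction. A further probe for Cxcl2 gave -1.86. Cxcl10, which attracts activated T cells, fell from 459.5 and 534 to 190.3 and 199, near its untreated intensities of 155 and 192 (log2 difference -1.35, or -1.97 with background correction). Ccl20, a ligand of CCR6, fell from 279.9 and 257 to 150.2 and 143, against 147 and 146 in untreated cells (log2 difference -0.87, or -1.68 with background correction). For these 4 chemokines both 2 hour arrays lay above every other array.

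Ccl2, which attracts monocytes, had intensities of 261 and 199 untreated, 2658 and 3059 at 2 hours and 2401 and 2186 at 2 days. The 2 day arrays lay slightly below the 2 hour arrays and about as far above the untreated ones. The log2 difference between the times was -0.32 (SE 0.12, 95% interval -0.56 to -0.07, adjusted p = 0.0755 by limma), which was not called, although it was called at the same value in fits without either untreated array. Ccl7, a related monocyte chemokine, stood at 429 and 408 at 2 hours and 359 and 422 at 2 days, and its arrays overlapped between the times. Its log2 difference was -0.10 (95% interval -0.33 to 0.12), and a further Ccl7 probe, with -0.32, was called lower at 2 days. Ccl9 was likewise classed as persisting, at 1071 and 1423 and then 1035 and 1169. Cxcl16, a membrane-bound chemokine and scavenger receptor, was the only chemokine called higher at 2 days: its intensity went from 902 and 1021 to 1761 and 1822 and then to 3497 and 3193. The steps were equal on the log2 scale, 0.90 by 2 hours and 0.90 (SE 0.10) between the times. A further Cxcl16 probe gave 0.18 and was not called.

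The promoters of genes that illustrate the courses are given from 250 bases before to 50 bases after the annotated start, 5′ to 3′ on the gene's strand, from RefSeq on GRCm38.p6. Capitals mark matches, on either strand, to the κB consensus, the sequence family that NF-κB binds. In Isg15 they mark such matches to GAAA followed by any 2 bases and GAAA, the core of the element bound by interferon regulatory factors. Overlapping matches run together. A match is a description of the letters and not evidence of binding. Cxcl1 (chr5:90890995-90891294, plus strand), Cxcl2 (chr5:90903649-90903948, plus strand) and Nfkbia (chr12:55492598-55492897, minus strand) rose early and faded. Tnip1 (chr11:54962891-54963190, minus strand) and Isg15 (chr4:156200769-156201068, minus strand) rose early and grew. Ubd (chr17:37193642-37193941, plus strand) had the largest rise between the times with background kept.
Cxcl1: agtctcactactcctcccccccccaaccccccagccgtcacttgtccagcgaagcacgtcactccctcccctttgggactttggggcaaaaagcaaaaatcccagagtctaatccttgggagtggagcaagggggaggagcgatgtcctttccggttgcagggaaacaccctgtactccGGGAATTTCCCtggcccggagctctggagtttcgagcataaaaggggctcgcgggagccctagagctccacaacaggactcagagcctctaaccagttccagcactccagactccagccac
Cxcl2: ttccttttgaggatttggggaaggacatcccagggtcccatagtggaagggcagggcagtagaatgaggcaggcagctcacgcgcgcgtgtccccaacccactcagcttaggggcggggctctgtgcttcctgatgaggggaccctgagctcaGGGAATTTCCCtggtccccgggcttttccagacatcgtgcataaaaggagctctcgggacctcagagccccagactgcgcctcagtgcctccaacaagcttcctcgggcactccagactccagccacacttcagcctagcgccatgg
Nfkbia: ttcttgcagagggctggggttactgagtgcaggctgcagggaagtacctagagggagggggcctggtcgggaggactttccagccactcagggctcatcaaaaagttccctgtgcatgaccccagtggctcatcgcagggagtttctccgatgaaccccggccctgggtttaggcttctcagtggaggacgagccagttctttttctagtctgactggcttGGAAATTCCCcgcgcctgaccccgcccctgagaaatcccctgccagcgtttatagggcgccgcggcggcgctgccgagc
Tnip1: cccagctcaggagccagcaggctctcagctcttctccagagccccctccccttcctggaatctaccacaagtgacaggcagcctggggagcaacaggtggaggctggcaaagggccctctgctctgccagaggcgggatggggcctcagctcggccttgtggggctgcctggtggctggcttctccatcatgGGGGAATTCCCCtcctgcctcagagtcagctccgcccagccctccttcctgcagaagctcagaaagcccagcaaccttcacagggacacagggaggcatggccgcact
Isg15: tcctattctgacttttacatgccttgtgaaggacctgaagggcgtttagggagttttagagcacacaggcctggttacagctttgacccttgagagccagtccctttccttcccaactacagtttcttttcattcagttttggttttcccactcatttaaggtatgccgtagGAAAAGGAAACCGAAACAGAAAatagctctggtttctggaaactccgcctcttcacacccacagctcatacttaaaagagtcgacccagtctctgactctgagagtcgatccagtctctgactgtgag
Ubd: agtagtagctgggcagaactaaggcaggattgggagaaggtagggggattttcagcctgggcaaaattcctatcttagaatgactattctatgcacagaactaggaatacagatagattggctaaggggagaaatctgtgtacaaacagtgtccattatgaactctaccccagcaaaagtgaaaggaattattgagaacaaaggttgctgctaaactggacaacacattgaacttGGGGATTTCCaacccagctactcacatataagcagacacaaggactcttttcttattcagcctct

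The κB matches began at base -71 from the start in Cxcl1, -97 in Cxcl2, -29 in Nfkbia, -58 in Tnip1 and -15 in Ubd. These promoters were chosen because they hold a match: those of Icam1 and Birc2, whose rises faded, and of Psmb10, whose rise grew, held none. Isg15 held no κB match in this window and 3 overlapping matches to the repeated GAAA, the outermost at -78. Over all 32851 promoters of this length, 8.46% held a κB match, and over the 13664 promoters of tested genes, 9.94%. The share was 25.6% (43 of 168 promoters, from 125 of 152 genes matched) in early rises that faded, 17.1% (6 of 35) in those that persisted and 9.09% (2 of 22) in those that grew. It was 14.3% (12 of 84) in early falls that faded. Late rises stood at 12.8% (75 of 586) and late falls at 12.4% (58 of 467). The GAAA repeat occurred in 3.44% of all promoters and 3.1% of those of tested genes. Its share was 1.19% in faded rises, 14.3% (5 of 35) in persisting rises and 9.09% (2 of 22) in growing rises. In late rises it was 3.41% (20 of 586) and in late falls 3.0% (14 of 467), close to the share of tested genes. These shares are counts without a test, and the smaller classes rest on few promoters.

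Many regulators of the NF-κB pathway fell back between the times. Of 23 tested genes in this list 11 were called lower at 2 days, 1 was called higher, and the median difference was -0.20. Of the 11, 10 had been called higher at 2 hours. Tnfaip3, which encodes A20, a ubiquitin-editing brake on the pathway, went from 253 and 243 untreated to 1619 and 1777 at 2 hours and 444 and 448 at 2 days. The 2 day arrays lay well below the 2 hour arrays but above the untreated ones, at log2 -1.93 between the times and 0.85 against untreated cells. Nfkbia, which encodes IκBα, kept a larger part of its rise on its brightest probe, with 633 and 693 untreated, 3732 and 3430.1 at 2 hours and 1610.1 and 1711 at 2 days (log2 difference between the times -1.11, SE 0.10). A further Nfkbia probe gave 0.59 at 2 hours and 0.13 at 2 days against untreated cells. Birc2, which encodes the ubiquitin ligase cIAP1, fell from 3898 and 3863 to 1597 and 1702 against 968 and 937 in untreated cells. Against untreated cells at 2 days its other probes gave 0.25, 0.08 and 0.22, and the probe used gave 0.79. No array of the 2 day group reached the 2 hour level in any of these genes. Nfkbie, the inhibitor IκBε, fell by 1.30 on the log2 scale and Tnfaip2, a TNFα-induced gene, fell by 1.87. Birc3, which encodes cIAP2, was measured near background by its probe (143 and 144 at 2 hours) and was not called at either time.

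Tnip1, whose protein binds A20 and also restrains the pathway, was the only listed regulator called higher at 2 days. Its intensities were 523 and 592 untreated, 1022 and 1127 at 2 hours and 1366 and 1346 at 2 days, with no overlap between groups. The log2 difference between the times was 0.34 (SE 0.10, adjusted p = 0.0255 by limma). It was not called with background correction (0.37), without 2 hour replicate 1 (0.27), without 2 day replicate 1 (0.33) or replicate 2 (0.35), or over the mean of its probes (0.17), of which the others gave 0.17, -0.06 and 0.22.

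The adhesion molecules Icam1 and Vcam1, to which white blood cells bind, fell from high early levels. Icam1, the ligand of leukocyte integrins, had intensities of 662 and 674 untreated, 7992 and 7746 at 2 hours and 2723 and 2604 at 2 days. At 2 days it was 2.96-fold lower than at 2 hours and still 3.99-fold above untreated cells. Vcam1, which binds integrin VLA-4, fell from 1914 and 2252 to 824 and 868 against 207 and 201 untreated (log2 difference -1.30), while its other probes gave -0.03 and -0.34, the second of them called. Cd44, the hyaluronan receptor, was the only member of the 14 tested that was called higher at 2 days, with Icam1 and Vcam1 the 2 called lower. Over all genes 8.63% were called higher and 6.67% lower. Cd44 stood at 472 and 491 untreated, 555 and 569.7 at 2 hours and 1688 and 1406 at 2 days, with both 2 day arrays far above the other 4 (log2 difference 1.45, SE 0.11). Its other probes gave 0.25, 0.09, 0.08, 0.23 and 0.85, of which the last was called.

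Receptors and suppressors of cytokine signalling differed in course. Of 31 tested genes of this list 7 were called lower and 2 higher at 2 days. Tlr2, a receptor for bacterial lipoproteins, fell from 1586 and 1618 to 784 and 869.5 but stayed far above the untreated 221 and 229 (log2 difference between the times -0.96). Cish, a suppressor of cytokine signalling downstream of STAT5, passed below its starting level: 1151 and 1126 untreated, 3968 and 3745 at 2 hours and 832 and 771 at 2 days. Every 2 day array of Cish lay under every untreated array, and the log2 difference between the times was -2.27 (SE 0.10, adjusted p = 1.55e-14 by limma). Socs2, a relative of Cish, persisted at 2884 and 3104 and then 2948 and 2779, with overlapping arrays and a log2 difference of -0.06 (95% interval -0.27 to 0.15). Socs3, the suppressor downstream of IL-6 signalling, was not called between the times (282 and 285 and then 248 and 227). Cd14, the lipopolysaccharide co-receptor, was classed as growing, from 1023 and 1025 to 1406 and 1411, a call that ended with background correction (log2 difference 0.50 against 0.46) and without either 2 hour array (0.46 in both).

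**Figure D2:**
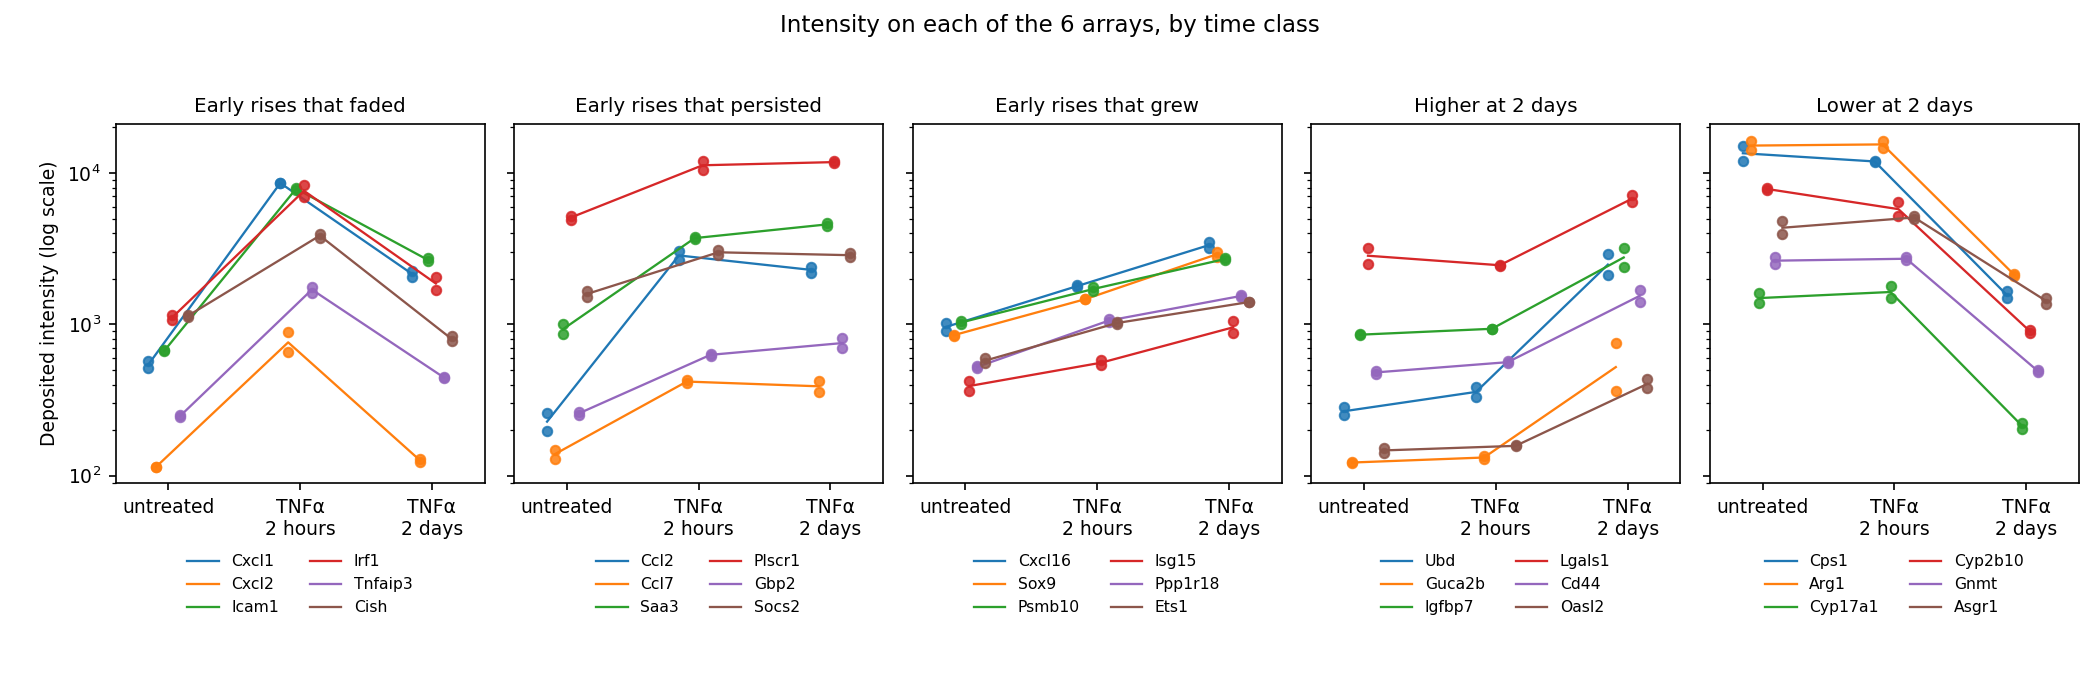
Deposited intensity (log scale) on each of the 6 arrays for 6 genes in each of 5 panels; points are arrays and lines join the geometric means of the groups. Cxcl1, Icam1 and Tnfaip3 peak at 2 hours, Ccl2 holds its level, Cxcl16 steps up at each time, and Ubd and Cps1 move between 2 hours and 2 days.

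Irf1, a transcription factor of the interferon pathway, fell while other interferon-regulated genes rose. Its intensities were 1147 and 1073 untreated, 6984 and 8318 at 2 hours and 1681 and 2061 at 2 days, a 4.1-fold fall between the times, with 4 other probes giving -2.16, -0.83, -1.96 and -1.90. The 2 day arrays of Irf1 remained above the untreated ones. Of the 26 interferon response genes tested, Irf1 was the only 1 called lower at 2 days, and 12 were called higher, with a list median of 0.25 against 0.01 over all genes. Oasl2, an oligoadenylate synthetase-like protein, stood at 153 and 141 untreated, 159 and 156 at 2 hours and 377 and 433 at 2 days. Only its 2 day arrays stood apart (log2 difference 1.36, or 2.24 with background correction), and its other probes, with -0.09 and -0.04, were not called. Isg15, a ubiquitin-like modifier, rose at each time, from 422 and 363 to 579 and 538 and 872 and 1046 (log2 difference between the times 0.78, SE 0.11). The groups of Isg15 did not overlap. Gbp3, a guanylate-binding GTPase, grew in the same way, from 235 and 284 to 359 and 459, while its relative Gbp2 persisted, from 641 and 617 to 699 and 809 with a log2 difference of 0.26 (95% interval 0.05 to 0.47). The differences of Isg15, Gbp3 and Psmb10 between the times were called in every setting tried, but the early rises of all 3 were not called with background correction. Those of Isg15 and Gbp3 were also not called without untreated replicate 2 or without 2 hour replicate 2, nor for Isg15 without 2 hour replicate 1. For Gbp3 the early call was also lost without untreated replicate 1, with an offset of 16, with no filter, over the mean of its probes and at an adjusted p under 0.01, so that it kept its class in 7 of 15 settings.

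Of 20 tested genes of antigen presentation and the immunoproteasome, 11 were called higher at 2 days, 9 were not called and none was lower, and the median was 0.36. Ubd, which encodes the ubiquitin-like modifier FAT10, had the largest rise of any gene between the times with background kept (3.17 with background correction, where the dim Guca2b rose by 3.38). It measured 283 and 251 untreated, 388 and 329.9 at 2 hours and 2120.3 and 2903 at 2 days, which is 6.93-fold between the times (log2 difference 2.79, SE 0.12, adjusted p = 1.82e-14 by limma). At 2 hours its difference from untreated cells was 0.42 and was not called. Psmb8, a catalytic subunit of the immunoproteasome, went from 1146 and 1169 to 2263 and 2318, after 839 and 968 in untreated cells (log2 difference 0.98; a further probe gave 0.27). Psmb10, another catalytic subunit, was already called at 2 hours and grew, from 1005 and 1056 to 1765 and 1659 and 2752 and 2652, and its further probe gave 0.72. In both genes every 2 day array lay above every 2 hour array. Tapbp, which encodes tapasin of the peptide-loading complex, rose by 0.76 on the log2 scale. Macrophages also express many of these genes. Of 15 listed macrophage markers 12 passed the filter. Of these, 5 were called higher at 2 days and none lower, against 8.63% and 6.67% over all genes. The summed intensity of the 12 was 2014 and 1982 at 2 hours and 2346 and 2526 at 2 days. In 11 of these 12 genes every array was below 300. C1qb, a complement subunit made by macrophages, rose from 203 and 176 to 265 and 334 and Fcer1g, a receptor subunit of myeloid cells, from 191 and 194 to 287 and 275. C1qc and Vsig4 were also called higher, though not with background correction (log2 differences 0.65 and 0.53). Adgre1, Csf1r and Lyz2 were not called. The part of macrophages in the rises above was not tested.

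Immediate early genes, transcription factors and phosphatases that respond within minutes to hours, were more often lower than higher at 2 days. Of 27 tested, 11 were called lower and 3 higher. Egr1 went from 2027 and 1633 untreated to 4143 and 4243 at 2 hours and 1678 and 1677 at 2 days, so that its late arrays overlapped the untreated range. Its log2 difference between the times was -1.32 (SE 0.11). Junb, an AP-1 subunit, fell from 1990.3 and 1876 to 958 and 908, although a further probe gave -0.02. Zfp36, which encodes tristetraprolin, a protein that speeds decay of cytokine mRNAs, fell below its untreated level, from 1531 and 1499.8 at 2 hours to 555 and 616 at 2 days against 1171 and 928, though its early rise was not called with background correction, without untreated replicate 2 or without either 2 hour array. Atf3, a stress-induced factor, did not differ from untreated cells at 2 hours by call and fell late, from 867 and 875 to 401 and 411. In each of these 4 genes the 2 day arrays lay below both 2 hour arrays. Dusp4, a phosphatase of MAP kinases, ran the other way, with 493 and 495 untreated, 295 and 284 at 2 hours and 678 and 727 at 2 days. Its 2 hour arrays were the lowest and its 2 day arrays the highest, and the log2 difference between the times was 1.28 (other probes 0.87, 0.03 and 0.59). Against untreated cells at 2 days the probe used gave 0.51 and the others 0.15, -0.12 and 0.25.

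Several stress genes and other early rises followed the same course. Hmox1, which encodes heme oxygenase 1, an antioxidant enzyme, was 1441 and 1575 untreated, 4458 and 4274 at 2 hours and 1582 and 1446 at 2 days, so its late arrays overlapped the untreated ones. Its log2 difference between the times was -1.53 (SE 0.10). Mt2, a metal-binding metallothionein, dropped from 1435 and 1791 to 546 and 478, under its untreated 1292 and 1005. Its early rise was not called with background correction, without untreated replicate 2 or without 2 hour replicate 2. That call was also lost in the fit that averaged each gene's probes, although Mt2 had no further passing probe to average. Sod2, the mitochondrial superoxide dismutase, fell from 10184 and 11757 to 8253 and 7726, a call lost with background correction (log2 difference -0.46 against -0.45) and without 2 hour replicate 2 (-0.35). Levels of these 3 genes at 2 days lay below those at 2 hours on every array. Fas, a death receptor, fell from 1062 and 1131 to 547 and 738 against 534 and 470.1 untreated. Stx11, a SNARE protein of vesicle fusion, was 3.2-fold lower at 2 days (980.3 and 954 and then 299 and 306). In the oxidative stress list, 5 of 24 tested genes were called higher and 4 lower. The highest rise there was that of Slc7a11, the cystine importer, from 292 and 366 to 875 and 690.3, with other probes at 0.36, -0.21 and 0.75.

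The persisting rises were by definition not called between the times, which bounds their differences at the precision of 2 arrays a group and does not show equality. Those differences ran from -0.32 to 0.33 in the 37 persisting rises and from -0.31 to 0.23 in the 44 persisting falls. Saa3, an acute phase apolipoprotein, stood at 1004 and 857 untreated, 3658 and 3767 at 2 hours and 4439.6 and 4704 at 2 days. The 2 day arrays were higher than the 2 hour arrays, at log2 0.30 (95% interval 0.09 to 0.51, adjusted p = 0.0526 by limma), a difference called with an offset of 16, with a filter at the 70th percentile and without either untreated array (0.30 in each). Plscr1, a phospholipid scramblase, held 12075 and 10467 and 11957 and 11647, with overlapping arrays. Bid, a pro-apoptotic BCL-2 family member, stood at 1072 and 1249.5 and then 948 and 950.3 (log2 difference -0.29), and was called lower under cyclic loess (-0.32) and without 2 hour replicate 1 (-0.40). A further Bid probe showed no rise, with log2 differences from untreated cells of 0.02 at 2 hours and -0.09 at 2 days.

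The growing rises included Sox9, a transcription factor of bile duct and progenitor cells. Its intensities were 852 and 842 untreated, 1469 and 1465 at 2 hours and 2796 and 3027 at 2 days. The groups did not overlap, and the difference between the times was log2 0.99 (SE 0.10), after 0.79 by 2 hours. Ppp1r18, an actin-associated subunit of protein phosphatase 1, was the 1 growing gene that had already risen 2-fold by 2 hours: 534 and 513, then 1034 and 1087, then 1518 and 1562. Every group of this gene stood clear of the others. Ets1, a transcription factor, followed at 556 and 597, 1012 and 1029 and 1410.3 and 1395, but its call between the times ended with background correction (log2 difference 0.50 against 0.46) and over the mean of its probes (0.25).

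**Figure D3:**
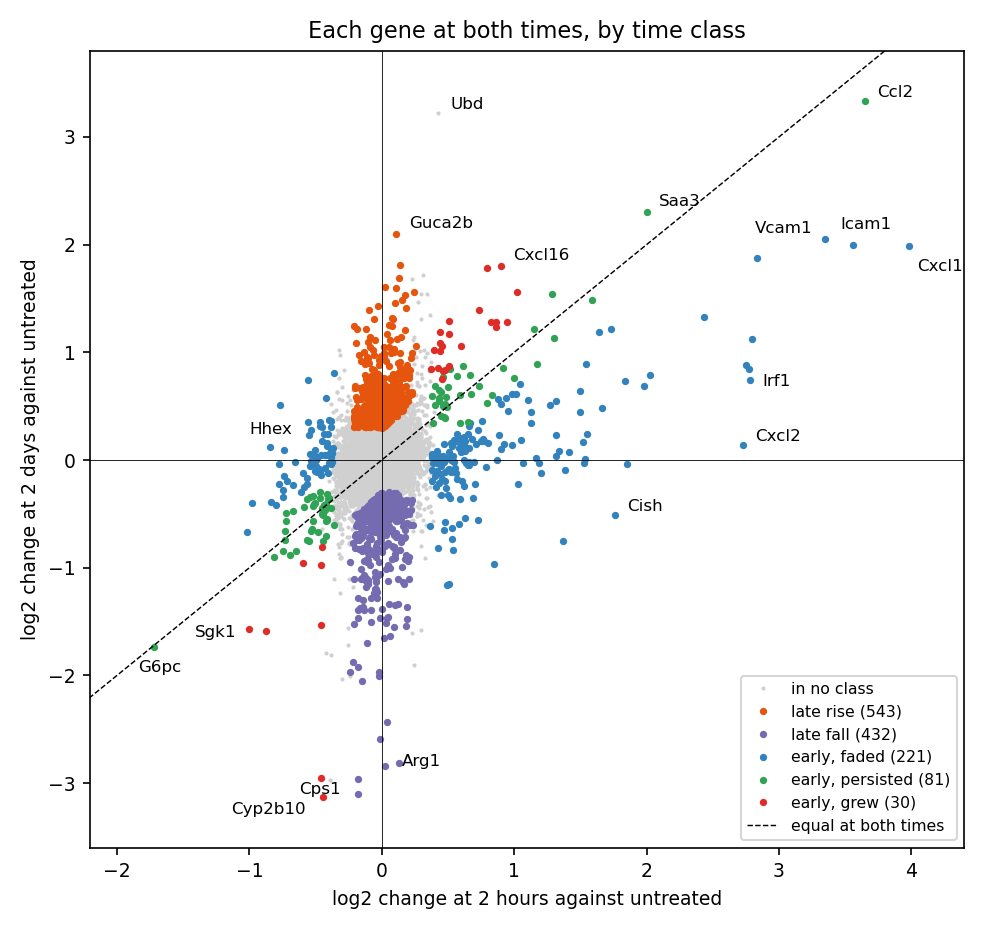
Log2 change of each tested gene at 2 hours (x axis) and at 2 days (y axis), both against the same 2 untreated arrays, coloured by time class. Points on the dashed line changed equally at both times; Cxcl1, Icam1 and Irf1 lie below it, Ccl2 and G6pc near it, Ubd above it, and Cps1, Arg1 and Cyp2b10 near the bottom.

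Early falls also faded, persisted or grew. Hhex, a homeobox factor of liver development, went from 4487 and 4401 untreated to 2373 and 2589.7 at 2 hours and 4882 and 4813 at 2 days. The 2 day arrays lay slightly above the untreated ones, and the log2 difference between the times was 0.97 (SE 0.10). Foxa2, a pioneer factor of hepatocyte genes, recovered from 230.3 and 238 to 397 and 314, against 397 and 385 untreated. Id2, an inhibitor of helix-loop-helix factors, recovered from 463 and 487 to 656 and 742, short of its untreated 852 and 777. The recovery of Foxa2 reached the untreated range on 1 of the 2 later arrays. Pik3r1, the regulatory subunit of PI 3-kinase, recovered in part, from 1307 and 1337 to 1945 and 2004 against 2405 and 2818, a call lost with background correction (log2 difference 0.61 against 0.58). G6pc, which encodes glucose-6-phosphatase, the last step of glucose output, persisted at a low level: 807 and 1096 untreated, 304 and 269 at 2 hours and 333 and 241 at 2 days. Its arrays overlapped between the times, with a log2 difference of -0.02 (95% interval -0.30 to 0.27). Foxo1, a factor that drives gluconeogenic genes, persisted at 631 and 549 and then 526 and 581 against 917 and 1068 on its brightest probe. A further Foxo1 probe showed no such fall, with log2 differences from untreated cells of 0.0006 at 2 hours and -0.10 at 2 days. Alas1, the first enzyme of heme synthesis, persisted at 5038 and 5022 and then 4980.4 and 5603 against 7992 and 8671. On the probes used, both treated groups lay below the untreated arrays in all 3 of these genes.

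Of the 8 falls that grew, those of Cyp2b10 and Cyp2b23 went furthest. Cyp2b10, a drug-metabolising P450 enzyme induced through the receptor CAR, had intensities of 7737 and 7958 untreated, 6402 and 5198 at 2 hours and 912 and 879 at 2 days. Most of its fall thus came between the times (log2 -2.69, SE 0.11, against -0.44 by 2 hours). A further probe for Cyp2b10 gave -0.45, also called. Cyp2b23 went from 1198 and 929.9 to 190.0 and 184 (log2 difference -2.50, or -3.33 with background correction), while its further probe gave -0.03. These are members of a family of near-identical genes, and probes may not tell them apart. Their early falls were not called with background correction, over the mean of their probes, without untreated replicate 2 or without 2 hour replicate 2, nor for Cyp2b10 without untreated replicate 1 and for Cyp2b23 under cyclic loess. Sgk1, a kinase induced by glucocorticoids, went from 18133 and 18227 untreated to 9114 and 8997 and 6744 and 5589, and its call between the times ended with background correction (log2 difference -0.57 against -0.56). Mfsd2a, a lysophospholipid transporter, went from 915 and 826 to 501 and 451 and 285 and 296.

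Glucocorticoid-inducible genes were lower at 2 days in 8 of 16 tested, with 1 higher and a median of -0.35. Fkbp5, a co-chaperone of the glucocorticoid receptor, fell late, from 1381 and 1381 to 491 and 630.0, after 1603 and 1328 in untreated cells. Its 2 hour arrays lay within the untreated range and its log2 difference between the times was -1.31 (SE 0.12). Klf9 fell from 4882 and 5478 to 3342 and 2710.0, again with no 2 day array in the range of the others. Tsc22d3, which encodes the leucine zipper protein GILZ, was the 1 member called higher, from 1197 and 1140.0 to 1693 and 1311 against 2404 and 2321 untreated. That direction rests on its brightest probe: the others gave -0.33 and -0.18, the mean of its probes gave -0.06, and the call was lost with background correction (0.38), under cyclic loess (0.30) and without either 2 hour array (0.39 and 0.32) or 2 day replicate 1 (0.17).

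Other large rises between the times came from several kinds of gene. Guca2b, which encodes the peptide hormone uroguanylin, stood at 124 and 121 untreated, 134 and 129.8 at 2 hours, near background, and 362 and 752 at 2 days (log2 difference 1.98, SE 0.18, or 3.38 with background correction). Guca2a, its relative guanylin, stood at 169 and 178 at 2 hours and 423 and 726 at 2 days (log2 difference 1.68, SE 0.15, or 2.49 with background correction). In both genes 2 day replicate 2 was clearly higher than replicate 1, and both lay above all other arrays. Gpr176, an orphan receptor, rose from 154 and 134 to 437 and 421 (log2 difference 1.58, or 2.70 with background correction). Igfbp7, a secreted growth factor binding protein, rose from 938 and 931 to 3178 and 2405, with 864 and 845 in untreated cells. Krt17, a keratin filament protein, rose from 339 and 293 to 837 and 837. None of these had been called at 2 hours. Cbr3, a carbonyl reductase, rose from 333 and 349 to 1111 and 790.2, and Wfdc2, a secreted protease inhibitor family member, from 495 and 526 to 1397 and 1217. For each of these genes the 2 day arrays lay above all 4 others.

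Cytoskeletal and lectin genes were higher at 2 days in 10 of 33 tested and lower in 2, with a median of 0.14. Lgals1, which encodes galectin 1, had 3214 and 2508 untreated, 2431 and 2483 at 2 hours and 6386 and 7117 at 2 days, 2.74-fold between the times. Lgals3, galectin 3, rose from 5478 and 4803 to 10941 and 9863 (2.03-fold). Vim, which encodes the intermediate filament protein vimentin, rose from 2369 and 2051 to 4715 and 4852. Tubb2b, a beta tubulin, rose from 3430.1 and 3311 to 7787 and 8692, although its other probes ranged in direction, with 0.97, -0.33, 0.32 and 0.69. Actb, the cytoplasmic actin often used as a reference, was not called (28794 and 29653 and then 32306 and 30911). Stellate cells and fibroblasts are rich in several of these proteins. Of 14 listed markers of those cells 8 passed the filter, of which 2 were called higher and 1 lower, and their summed intensity was 3235 and 3008 at 2 hours and 3839 and 4492 at 2 days. Acta2, smooth muscle actin, in both lists, went from 1464 and 1256 to 2107 and 2906, which carried the rise of that sum. Its call was lost with background correction (log2 difference 0.91 against 0.87). Other Acta2 probes gave 0.06, 0.36 and 0.51, of which the first was not called. Timp1, a protease inhibitor, rose from 241 and 226 to 349 and 344, and Reln, reelin, fell from 511 and 511 to 225 and 206, with a further probe at 0.04. The part of those cells in the rises above was not tested.

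Several cell cycle genes were higher at 2 days. Of 29 tested, 13 were called higher at 2 days and 1 lower, the median was 0.19, and none had been called at 2 hours. Mcm4, a subunit of the replicative helicase, measured 502 and 461 untreated, 409 and 484 at 2 hours and 811 and 792 at 2 days (log2 difference 0.85, SE 0.11). Mcm5, of the same complex, rose from 248 and 244 to 391 and 357. Cdk4, a kinase of the first gap phase, rose from 1181 and 1066 to 1977 and 2016, and its partner Ccnd1, cyclin D1, from 392 and 422 to 601 and 561, with other probes at 0.82 and -0.04. In all 4 genes the 2 day arrays lay above the other 4 arrays. Cdkn1a, which encodes the cell cycle inhibitor p21, was the 1 member called lower, from 7726 and 7712 to 5486 and 5635, a call lost with background correction (log2 difference -0.48 against -0.47).

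With background kept, the 4 largest falls between the times were in metabolic genes, Cyp17a1, Cps1, Arg1 and Cyp2a12, and none of these had been called at 2 hours. Among the named genes, Cxcl2 fell furthest with background correction (-4.26), and Cyp2b23 (-3.33) and Cyp3a11 (-2.93) passed Arg1 (-2.92) and Cyp2a12 (-2.89). In the urea cycle and amino acid catabolism list, 25 of 35 tested genes were called lower at 2 days, 1 was called higher, and the median was -0.58. In bulk RNA of a culture, fewer hepatocytes and less of an mRNA per hepatocyte cannot be told apart. Among 12 tested hepatocyte markers 9 were called lower at 2 days and none higher, and their summed intensity was 116600 and 119100 at 2 hours and 72200 and 70360 at 2 days. Cps1, the entry enzyme of the urea cycle, had intensities of 15129.5 and 12046 untreated, 11757 and 12075 at 2 hours and 1649 and 1496 at 2 days. Its 2 hour arrays lay near the lower untreated array and its 2 day arrays far below both groups, 7.59-fold under 2 hours (log2 difference -2.92, SE 0.11, adjusted p = 1.03e-15 by limma). Arg1, arginase, which releases urea, went from 16188 and 14217 untreated to 14551 and 16386 at 2 hours and 2101 and 2137 at 2 days, 7.29-fold between the times. Gnmt, a glycine methyltransferase, fell from 2646 and 2779 to 496 and 483 (other probes -2.12 and -0.20), and Uox, which breaks down urate, from 5586 and 5923 to 1591 and 1484. Xdh, xanthine dehydrogenase, which makes urate, was the 1 member called higher, from 439 and 384 to 727 and 696. The 2 hour arrays of these 5 genes lay within or near the untreated range.

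Cytochrome P450 genes fell in 18 of 28 tested, with 2 higher and a median of -0.77. Cyp17a1, a steroid hydroxylase, had intensities of 1601 and 1387 untreated, 1489 and 1796 at 2 hours and 223 and 203 at 2 days. Its 2 hour arrays overlapped the untreated ones and its 2 day arrays approached background (log2 difference -2.94, or -3.67 with background correction). Cyp2a12 fell from 7191 and 8516 to 988 and 1301 and Cyp3a11, the main drug-metabolising enzyme of its family in mouse liver, from 2240.0 and 2369 to 311 and 476. All 3 genes had their lowest levels on the 2 day arrays. Among phase 2 and related conjugation genes, 9 of 31 were called lower and 7 higher. Rdh7, a retinol dehydrogenase, fell from 4596 and 4827 to 674 and 928, and Sult1a1, a sulfotransferase, from 6968 and 9066 to 1795 and 2244. Adh1, alcohol dehydrogenase, fell from 19366 and 19366 to 5829 and 6561. These 3 falls were all late. Glutathione transferases, which couple glutathione to toxic compounds, supplied 6 of the 7 genes called higher. Gsta4, of that family, rose from 342 and 389 to 773 and 686 (log2 difference 1.00). The calls of Gsta2, Gsta3 and Gstm2, with differences of 0.77, 0.64 and 0.65, were lost with background correction (0.80, 0.64 and 0.66), and that of Gsta3 also over the mean of its probes (0.37).

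**Figure D4:**
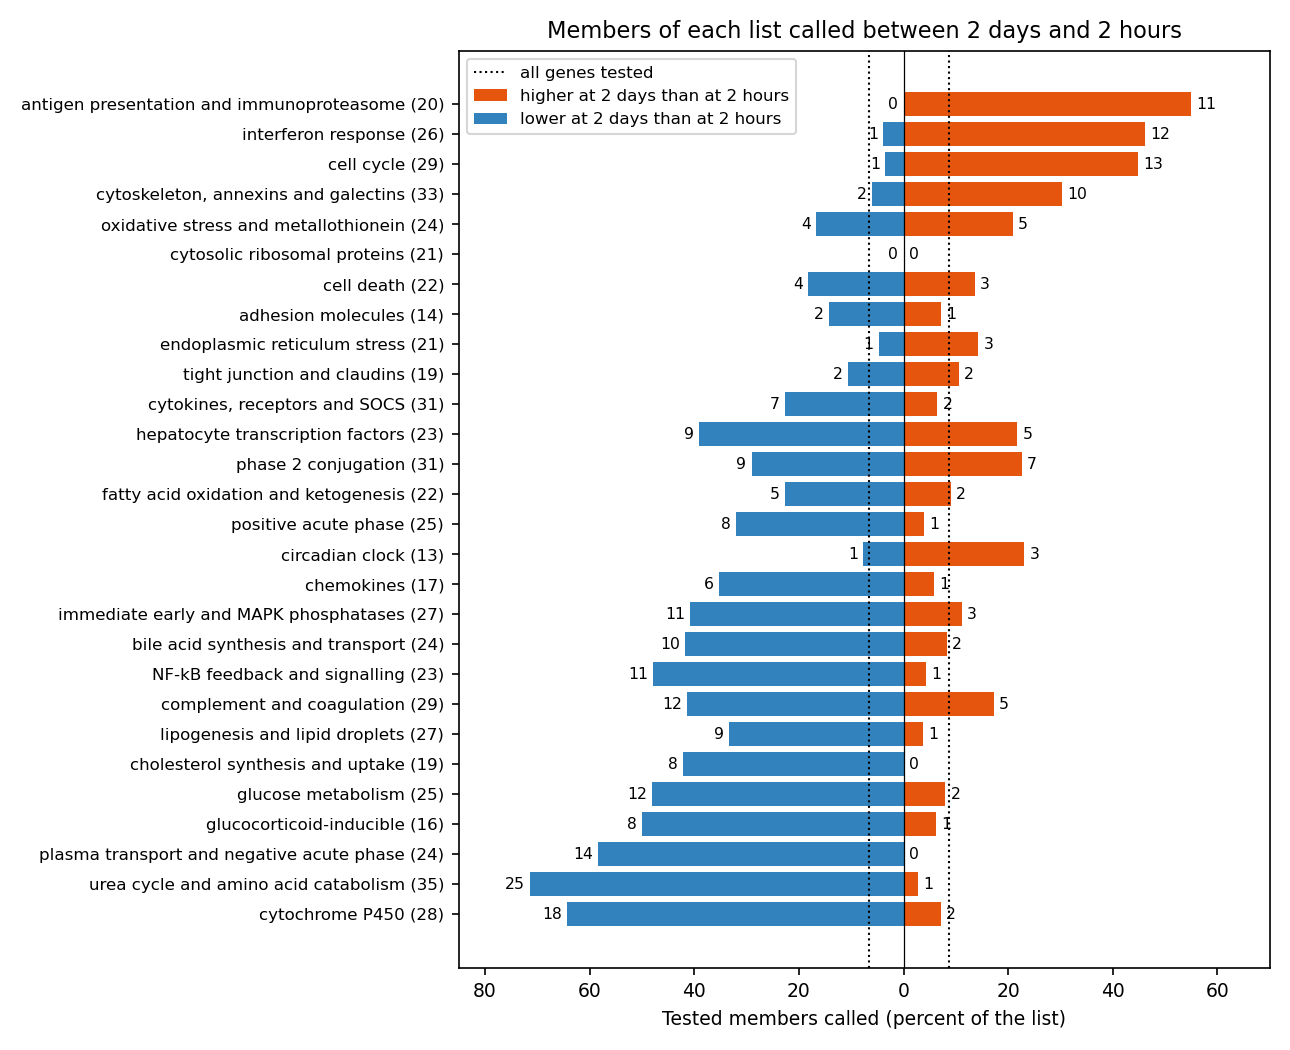
Percent of the tested members of each gene list called higher (right) or lower (left) at 2 days than at 2 hours, with counts at the bar ends and the number tested in brackets; dotted lines mark the shares over all genes, 8.63% higher and 6.67% lower. Antigen presentation genes reach furthest to the right (11 of 20) and urea cycle genes furthest to the left (25 of 35).

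Of 24 tested transport and negative acute phase genes, 14 were called lower and none higher, with a median of -0.44. Apoa4, an apolipoprotein, fell from 12313 and 12147 to 3208 and 3116, with 11307 and 13583 in untreated cells. Igf1, insulin-like growth factor 1, fell from 6724 and 7097 to 2816 and 2740.4. Asgr1, a subunit of the hepatocyte receptor that clears glycoproteins from plasma, fell from 4996 and 5167 to 1369.6 and 1490.1. None of these 3 genes had been called at 2 hours. Of 29 complement and coagulation genes, 12 were called lower and 5 higher. F10 and F12, clotting factors X and XII, had log2 differences of -1.55 and -1.17, and Serpinf2, the inhibitor of plasmin, -1.03. Masp1, a protease of the lectin pathway of complement, went from 1218 and 1164 to 702 and 688 and 1108 and 1212 on its brightest probe (log2 difference 0.74), while its other probes gave 0.14 and -1.15 and the mean of its probes -0.09.

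Positive acute phase genes, whose plasma proteins increase in inflammation, were lower in 8 of 25 tested and higher in 1. Crp, C-reactive protein, had intensities of 9066 and 7555 untreated, 11204 and 13849 at 2 hours and 6779.7 and 6141 at 2 days, highest at 2 hours and lowest at 2 days. Its early rise was not called with background correction, without untreated replicate 2 or without 2 hour replicate 2. Serpina3n, a protease inhibitor, fell from 10959.8 and 11995 to 5731 and 5038 and Itih4, an inhibitor family member of plasma, from 9341 and 8299.5 to 5111 and 5441. Saa1, a serum amyloid A protein, was not called (26385 and 26236 and then 23389.5 and 23505), and its probe may cross-match with Saa2, which was called lower by -0.37, a call lost with background correction (-0.46), without 2 hour replicate 1 (-0.33) and without 2 day replicate 2 (-0.31). Hamp, which encodes hepcidin, the iron-regulating hormone, was the 1 member called higher, from 1004 and 1099.9 to 1485 and 2252, a call lost with background correction (log2 difference 0.85 against 0.80).

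Glucose genes were called lower in 12 of 25 tested and higher in 2. Ppp1r3b, which targets protein phosphatase 1 to glycogen, fell from 917 and 917 to 294 and 285, Ugp2, of glycogen synthesis, from 2289 and 2714 to 1036 and 880.3, and Slc2a2, the liver glucose transporter, from 938 and 932 to 429.5 and 363. In these 3 genes the 2 hour arrays lay near the untreated ones. Of 24 bile acid genes 10 were called lower and 2 higher. Baat and Slc27a5, which conjugate and activate bile acids, fell by 1.22 and 1.21, whereas Abcc4, an export pump, rose from 169 and 184 to 344 and 329 (log2 difference 0.93, or 1.53 with background correction).

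Of 27 lipogenesis and lipid droplet genes 9 were called lower and 1 higher, and Plin5, a droplet coat protein, fell from 861 and 828 to 359 and 366. Of 19 cholesterol synthesis and uptake genes 8 were called lower and none higher, among them Sqle, squalene epoxidase, from 3890.4 and 4472 to 2077 and 2481. Of 22 fatty acid oxidation genes 5 were called lower and 2 higher, against 6.67% and 8.63% over all genes. Acaa2, a thiolase of mitochondrial oxidation, fell by 0.70, and Acot1, a cytosolic thioesterase, rose by 0.85 on a probe whose partner gave 0.02.

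Transcription factors of hepatocyte identity were called lower in 9 of 23 tested and higher in 5. Hnf4a, a master regulator of hepatocyte genes, went from 2392 and 1982 untreated to 1749 and 2058 at 2 hours and 1286 and 1186 at 2 days. Its 2 day arrays lay below all others, and its call was lost with background correction (log2 difference -0.66 against -0.62). Nr1i2, the xenobiotic receptor PXR, fell from 601 and 650.2 to 400.1 and 429.9, and Nr5a2, a regulator of bile acid genes, faded from 436 and 421 to 251 and 243. Cebpa was not called (180.3 and 193 and then 178 and 181). The 21 tested genes of cytosolic ribosomal proteins had no call in either direction and a median of 0.02.

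Remaining markers gave no further group that moved as a whole. The probe for Alb, albumin, lay near background on all arrays (157 and 151 at 2 hours) and gives no information on that gene. Of 12 listed endothelial markers 11 were tested, of which 1 was called higher and 2 lower, against 8.63% and 6.67% over all genes. The endothelial sums were 2435 and 2234 at 2 hours and 2245 and 2244 at 2 days. Of 10 listed bile duct markers 4 were tested, and Sox9, described above, was the 1 called, which carried their sum from 2157 and 2140 to 3540 and 3858. Of 14 listed lymphocyte and neutrophil markers 4 were tested, none was called, and no array of any of them exceeded 184. Their sums were 627.6 and 566.6 and then 597.9 and 602.6.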

How the data were processed

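The values used were the deposited intensities of single-colour Illumina mouse bead arrays on a linear scale, 45281 probes on each of 6 arrays. The authors deposited them already brought to nearly 1 distribution (at any rank the arrays differed by at most 0.333%) and with background kept (software not given in the sources used here). Array number, 2 per group, limits the precision.

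Intensities were log2 transformed without an offset. Probes above their array's 50th percentile on at least 2 arrays were kept (26272), and 34885 of all probes had exactly 1 gene symbol in the platform annotation, of which 34807 were updated through RefSeq gene tables (GRCm38.p6, names only). The probe with the highest mean stood for a gene, which left 13438 genes. limma 3.58.1 in R 4.3.3 fitted 1 mean per group to all 6 arrays (lmFit, eBayes), with Benjamini-Hochberg adjustment over all genes. Fitting steps were tested on simulated data.

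Members and gene lists were chosen with earlier results of these data known. Genes were named by a rule: the 15 largest rises and falls between the times with arrays that did not overlap, the 10 largest changes in each time class, the 4 largest called differences in each direction of each list, and a short list of genes named whatever their values. Adgre1, Csf1r and Lyz2, outside it, are named as listed macrophage markers that were not called. Alternatives were normexp background correction (offset 16), cyclic loess, an offset of 16, other filters (none, or the 70th percentile), averaging a gene's probes, trended and robust variance, the replicate number as a block, an adjusted p under 0.01, the 4 compared arrays alone, and each array left out. Promoters came from RefSeq and matched 10821 of the 13438 genes.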

Additional observations from a re-analysis of the deposited data

Results flagged for a closer look

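Of the genes called at 2 hours, 28 were called at 2 days in the opposite direction against untreated cells, and the test of the difference is the limma fit of 2 days against 2 hours, in which all 28 were called. They are named here because of that pattern, after their values were seen, and both times share the same untreated arrays.

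Early rises that ended below untreated cells numbered 19. Cish, the cytokine signalling suppressor, had a log2 difference between the times of -2.27, Nipal1, a magnesium transporter-like gene, -2.12, and Slc7a2, a carrier of cationic amino acids, -1.81. Retreg1 had -1.66, the metallothionein gene Mt2 -1.65, the mRNA decay factor gene Zfp36 -1.37 and Hopx -1.28. Igfbp1, which encodes a binding protein of insulin-like growth factors, had -1.26, Reln -1.25, the lipid droplet gene Cidec -1.18 (-1.96 with background correction), the peptide hormone gene Adm -1.16 and the sterol transporter gene Abcg5 -1.16. Genes of lipid handling were also among them, with Dgat2, of triglyceride synthesis, at -1.12, Lcat, of cholesterol esterification in plasma, at -1.05 and the phospholipase-like Pla2g12b at -1.04. The remaining values were -0.97 for Slc25a25, -0.95 for Crp, -0.87 for Prdm2 and -0.83 for Adh7. The class of an early rise that faded was recomputed under 15 settings for 10 of these 19 genes. Whether their calls below untreated cells at 2 days held was not recomputed. Cish and Nipal1 kept the class in all 15, Igfbp1 in 13, Abcg5, Cidec and Crp in 12, Zfp36 in 11, Mt2 in 10, Dgat2 in 9 and Reln in 8. All 8 that did not keep it throughout lost the class with background correction, and each also did so without at least 1 of the single arrays.

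Early falls that ended above untreated cells numbered 9. Tsc22d1 had a log2 difference of 1.30 between the times, the MAP kinase phosphatase gene Dusp4 1.28, Snn 1.17 and Ddit4l 1.00. The zinc finger genes Zfp219, Zfp362 and Zfp518b had 0.91, 0.77 and 0.70, the hyaluronidase gene Hyal2 0.82 and Gse1 0.74. Dusp4, the only gene of these 9 whose class was recomputed, kept that of an early fall that faded in all 15 settings. Its call above untreated cells at 2 days was not recomputed, and its other probes lay lower there, as given above.

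Probes that the annotation used here does not list carried signal too: of 4836 such probes that passed the filter, 147 were called higher at 2 days than at 2 hours and 177 lower. Groups of 2 arrays are too small to test an array for standing apart from its group.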

How the results depend on the processing

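Every called difference of a named gene kept its direction under every alternative, except those of Masp1 (-0.091) and Tsc22d3 (-0.056) over the mean of a gene's probes. Some named genes, such as the persisting ones, were not called between the times and so had no call to lose. Of 218 named genes, 64 lost their call with normexp background correction and 18 to 28 without a 2 hour or 2 day array; background correction also moved the counts most, and the cause was not tested. It gave 413 genes higher and 397 lower at 2 days, early rises of which 52 faded, 18 persisted and 3 grew, early falls of which 6 faded, 2 persisted and 1 grew, and 186 late rises and 190 late falls. At an adjusted p under 0.01 the counts were 710 higher, 10 growing early rises, 29 faded, 20 persisting and 2 growing early falls, and 320 late rises. Over the mean of a gene's probes 11 early rises grew, 29 early falls faded and 5 grew. Leaving out each array in turn gave 676 to 1212 higher and 594 to 943 lower genes, early rises of which 89 to 138 faded, 27 to 44 persisted and 7 to 20 grew, early falls of which 20 to 52 faded, 18 to 39 persisted and 2 to 9 grew, 347 to 454 late rises and 319 to 377 late falls. With the replicate number as a block (replicate block) 1129 genes were higher and 878 lower and no named gene changed its call. Deviations of same-numbered arrays correlated at -0.15, -0.08 and 0.04 between groups, so no shared effect of the replicate number was visible. Whether same-numbered arrays were paired is not in the labels. Without the untreated arrays 1212 genes were higher and 943 lower. Signal near background limits dim genes, whose changes are understated.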

Other observations

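Of 19 tested tight junction and gap junction genes 2 were called higher at 2 days than at 2 hours and 2 lower, near the shares over all genes of 8.63% and 6.67%, and the call of Cldn3 was lost with background correction. Cldn4, a claudin that seals the space between epithelial cells, stood at 3943 and 3414 in untreated cells, 3056 and 3800.2 at 2 hours and 6507 and 7712 at 2 days (log2 difference between the times 1.06, SE 0.12). Gjb2, which encodes the gap junction protein connexin 26, stood at 4534 and 3666, 3059 and 3526 and 1842 and 1625 (log2 difference -0.92, SE 0.11). In both genes the 2 day arrays lay outside the range of the 2 hour arrays. Cldn14 fell from 232 and 234 to 145 and 145, near background, with a log2 difference of -0.69, or -1.40 with background correction.

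Among 22 tested cell death genes 3 were called higher and 4 lower, and with background correction the calls of Fadd, Mlkl, Mcl1, Phlda1 and Tnfrsf10b were lost. Among 21 endoplasmic reticulum stress genes 3 were called higher and 1 lower, and with background correction the calls of all 4, Pdia3, Pdia4, Trib3 and Dnajb9, were lost. Of 13 circadian clock genes 3 were called higher and 1 lower, and the calls of Dbp, Per1 and Per2 were lost with background correction. Over all genes 8.63% were called higher and 6.67% lower, and the 1 lower call in each of the last 2 lists lay near the latter share.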
